A study of Mus musculus with 12 samples.

Results

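Plat, Plau, Plaur and Serpine2 of the plasminogen activator system and the serpin gene Serpinf1, 5 genes, were followed through 12 bulk RNA-seq libraries of cultured mouse cells. Members were the rows whose symbol was Plat, Plau, Plaur, Serpine2 or Serpinf1 in the deposited expression tables, and these are 5 of the 52636 genes listed there. The libraries fall into 4 groups of 3. Smooth muscle cells (SMCs) of the C57BL/6 strain, bought as primary airway cells and labelled as tracheal, received scrambled (Scr) RNA or small interfering RNA against Klf4 (siKlf4). Lung PDGFR-β+ cells received the same treatments, and their labels give the C57BL/6 strain, an age of 12 weeks and the genotype WT for Scr and Klf4 knockdown for siKlf4. By the study's methods these PDGFR-β+ cells were sorted for the Zs reporter out of mouse lungs that carried Pdgfrb-CreERT2 with ROSA26R(Zs/+) and had been given tamoxifen, so the Pdgfrb promoter drove the recombinase that marked them, and both cell types were grown at low passage on gelatin. The methods give 50 nM siRNA for 6 h and a further 72 h of culture for the knockdowns. The 2 cell types also differed in supplier, in growth medium before transfection and in deposited table, which cannot be told apart from cell type in any level set between them.

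Values are TPM, the share of a library's transcripts that a gene holds after correction for its length, scaled so that it sums to 1000000 in each library. TPM keeps no depth, so the precision rests on the 3 libraries of a group. Klf4, the transcription factor that was targeted, had 21.9% of its Scr mean left in siKlf4 SMCs and 9.16% left in siKlf4 PDGFR-β+ cells, with no overlap of the groups. Smooth muscle genes (7 markers, Acta2 and Tagln foremost) summed to 1445 to 2238 TPM in Scr SMCs and 3345 to 4093 in siKlf4 SMCs, against 5496 to 6350 in Scr and 4621 to 4915 in siKlf4 PDGFR-β+ cells. Under Scr the sums did not overlap and were lower in the cells labelled SMC than in PDGFR-β+ cells, which goes against the label, and Myocd did not reach a mean of 1 TPM in either. Epithelial markers summed to at most 0.947 TPM in any library, and Pecam1, Cdh5, Ptprc and Adgre1 did not reach a mean of 1 TPM. The macrophage list summed to 3.23 to 11.4 TPM over the 12 libraries. The endothelial list summed to 1.28 to 2.51 TPM in Scr and 3.37 to 3.87 in siKlf4 SMCs, and to 15.2 to 18.4 in Scr and 14.0 to 16.0 in siKlf4 PDGFR-β+ cells. The list of PDGFR-β+ mesenchyme summed to 3325 to 3602 TPM in Scr and 2756 to 2897 in siKlf4 SMCs, and to 3726 to 4403 in Scr and 3043 to 4059 in siKlf4 PDGFR-β+ cells. The 3 mesothelial markers summed to 16.98 to 26.4 TPM in Scr and 6.85 to 9.75 in siKlf4 SMCs, and to 11.1 to 13.3 in Scr and 1.85 to 1.91 in siKlf4 PDGFR-β+ cells. Of these markers, 2 were tested in each cell type and both fell. The smooth muscle and mesothelial sums moved with siKlf4 in both cell types, and the endothelial and mesenchyme sums in SMCs, without overlap of the groups. Of 6 smooth muscle markers tested, 5 rose and none fell in SMCs. In PDGFR-β+ cells 2 of them rose (Myh11 and Smtn) and 3 fell (Acta2, Tagln and Des). Kdr was the only endothelial marker tested in SMCs, and it rose. The part of these marker changes in the results was not tested.

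Plasminogen activators are serine proteases that cut the inactive precursor plasminogen into plasmin, which dissolves fibrin and degrades or activates other matrix and growth factor proteins. Tissue-type activator (Plat) cuts plasminogen mainly on the surface of fibrin, whereas urokinase (Plau) is held at the cell surface by its receptor (Plaur). That receptor is a protein anchored in the membrane by a lipid tail. Serpins such as protease nexin-1 trap these enzymes in an inactive complex. In the lung, the balance of activators and inhibitors is a known setting for the clearance or persistence of fibrin and matrix after injury.

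All 5 genes have the same identifiers in a GENCODE annotation of GRCm38 (mm10), and no other annotated gene overlaps them there. Plat (ENSMUSG00000031538.6) lies on chromosome 8 from 22757727 to 22782844 on the plus strand. Plau (ENSMUSG00000021822.3) lies on chromosome 14 from 20836660 to 20843385 on the plus strand. Plaur (ENSMUSG00000046223.10) lies on chromosome 7 from 24462484 to 24475968 on the plus strand. Serpine2 (ENSMUSG00000026249.10), the gene for protease nexin-1, lies on chromosome 1 from 79794197 to 79861180 on the minus strand. Serpinf1 (ENSMUSG00000000753.15), the gene for pigment epithelium-derived factor, lies on chromosome 11 from 75409769 to 75422701 on the minus strand.

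RefSeq promoter sequences of GRCm38.p6 matched 3 of the 5 genes, Plaur, Serpine2 and Serpinf1. Every member that matched is shown, and Plat and Plau had no entry. Among those shown, Plaur and Serpine2 were the members whose response to siKlf4 differed between the cell types, and Serpinf1 was the most abundant member. Each is the stretch before the RefSeq start site that lies outside the gene's annotated exons, 5′ to 3′ on the gene's own strand. Capitals mark CACCC and GGGCGG on either strand (read as GGGTG and CCGCCC on the other), letters of the kind that Krüppel-like and Sp factors are known to bind. The 3 windows are chr7:24462233-24462482 for Plaur, chr1:79858697-79858915 for Serpine2 and chr11:75422702-75422873 for Serpinf1, where the Serpine2 window lies within the annotated gene because a longer transcript starts further upstream.
Plaur: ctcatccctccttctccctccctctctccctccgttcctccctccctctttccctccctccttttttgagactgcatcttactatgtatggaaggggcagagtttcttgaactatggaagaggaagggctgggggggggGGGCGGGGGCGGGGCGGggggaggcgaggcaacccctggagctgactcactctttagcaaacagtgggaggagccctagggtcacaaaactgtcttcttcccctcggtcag
Serpine2: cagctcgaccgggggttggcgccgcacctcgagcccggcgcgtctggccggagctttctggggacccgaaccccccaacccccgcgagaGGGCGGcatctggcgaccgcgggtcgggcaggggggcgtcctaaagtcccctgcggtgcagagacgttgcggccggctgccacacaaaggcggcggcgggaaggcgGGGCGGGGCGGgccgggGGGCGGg
Serpinf1: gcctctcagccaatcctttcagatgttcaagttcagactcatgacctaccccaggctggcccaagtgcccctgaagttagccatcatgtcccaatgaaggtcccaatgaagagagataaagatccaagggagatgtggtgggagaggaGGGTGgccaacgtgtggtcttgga
GGGCGG matched 3 times, with shared bases, in the 250 bases of Plaur and 4 times in the 219 bases of Serpine2, and it did not occur in the 172 bases of Serpinf1. CACCC matched 1 time in Serpinf1 and in neither of the others. GGGCGG is found in 32.7% and CACCC in 52.0% of all 32851 promoter windows of 250 bases. GGGCGG is in 28.3% of windows of 219 bases and CACCC in 39.3% of windows of 172 bases, so these matches are a description of the letters only.

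**Figure D1:**
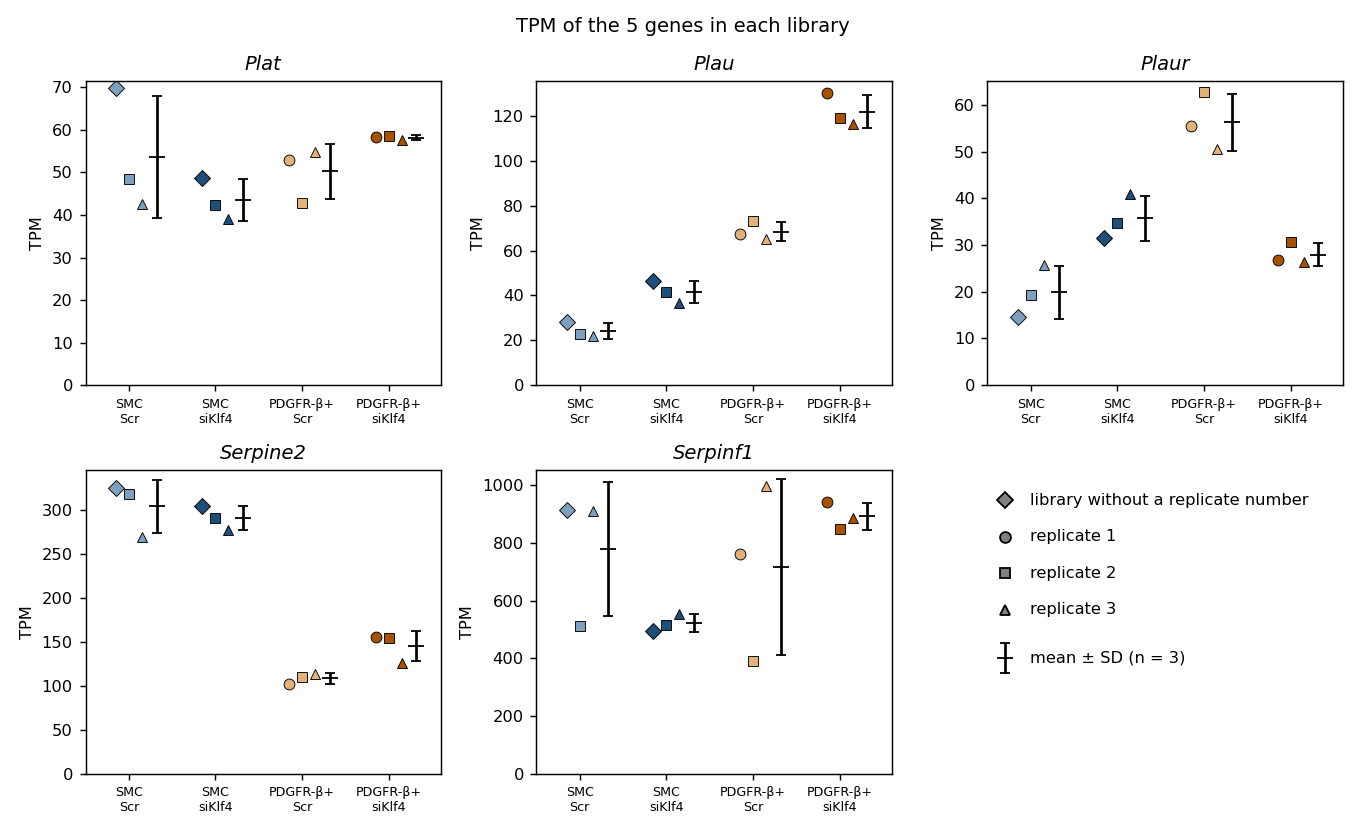
TPM (linear axes from 0) of Plat, Plau, Plaur, Serpine2 and Serpinf1 in each of the 12 libraries, grouped by cell type and treatment, with the marker shape giving the replicate number and the bar the mean ± SD of 3 libraries. Plau was higher with siKlf4 in both cell types, whereas Plaur went from 19.9 to 35.7 TPM in SMCs and from 56.3 to 27.9 TPM in PDGFR-β+ cells.

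The urokinase gene Plau rose with siKlf4 in both cell types. Each log2 fold change is siKlf4 over Scr, taken from log2(TPM + 1), and a gene passed the test at an adjusted p under 0.05. In such bulk libraries fewer cells of a type and less RNA per cell cannot be told apart. In Scr SMCs, Plau stood at 28.0 TPM in the library without a replicate number, 22.7 in replicate 2 and 21.7 in replicate 3, and in siKlf4 SMCs at 46.4, 41.3 and 36.7 TPM in the same order. Every siKlf4 SMC library was above every Scr library. The means were 24.1 ± 3.40 and 41.5 ± 4.83 TPM (SD, n = 3), a log2 fold change of 0.76 (SE 0.13, adjusted p = 0.00627 by limma). In PDGFR-β+ cells, Plau stood at 67.2, 73.1 and 65.4 TPM in Scr replicates 1 to 3 and at 130.3, 119.2 and 116.5 TPM in the siKlf4 replicates. These groups were also apart, with means of 68.6 ± 4.03 and 122.0 ± 7.30 TPM (SD, n = 3) and a log2 fold change of 0.82 (SE 0.08, adjusted p = 0.000219 by limma). The difference of the 2 responses, SMCs minus PDGFR-β+ cells, did not pass, at -0.06 (SE 0.15, adjusted p = 0.782 by limma). The sign of that difference turned with median-ratio scaling, at 0.03.

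The tissue-type activator gene Plat did not pass the test in either cell type. Plat was at 69.9, 48.5 and 42.5 TPM in Scr SMCs (library without a number, replicates 2 and 3) and at 48.8, 42.4 and 39.0 TPM in siKlf4 SMCs. The groups overlapped, and the library without a number was the highest of its group under both treatments. The log2 fold change of Plat in SMCs was -0.27 (95% interval -0.70 to 0.16, adjusted p = 0.299 by limma). It was -0.07 without the unnumbered Scr library and -0.42 without Scr replicate 3, and neither passed. In PDGFR-β+ cells, Plat was at 52.9, 42.9 and 54.9 TPM with Scr and at 58.3, 58.6 and 57.6 TPM with siKlf4. Here the siKlf4 libraries were all above the Scr libraries, but the log2 fold change of 0.22 had an interval from -0.02 to 0.45 and an adjusted p of 0.127 by limma. It was 0.11 without Scr replicate 2. The difference of the Plat responses was -0.49 (SE 0.23, adjusted p = 0.117 by limma). This difference passed in 3 of the 21 alternatives that gave a test. One of them left out Scr SMC replicate 3, at -0.64 with an adjusted p of 0.0400 by limma. The others added a term for the replicate number or for column naming, and are given in the last section.

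Plaur, the receptor that holds urokinase at the cell surface, moved in opposite directions in the 2 cell types. In SMCs, Plaur was at 14.5, 19.3 and 25.8 TPM with Scr and at 31.5, 34.7 and 40.9 TPM with siKlf4, so that every siKlf4 library was above every Scr library. The mean went from 19.9 ± 5.68 to 35.7 ± 4.81 TPM (SD, n = 3), which is a log2 fold change of 0.84 (SE 0.20, adjusted p = 0.0209 by limma). This call was lost with no filter on low values (adjusted p = 0.0564), without Scr replicate 2 (0.0601), without siKlf4 replicate 2 (0.0594) and without siKlf4 replicate 3 (0.0707, all by limma), where the log2 fold change stayed between 0.74 and 0.86.

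In PDGFR-β+ cells, Plaur was at 55.5, 62.7 and 50.7 TPM with Scr and at 26.8, 30.7 and 26.3 TPM with siKlf4. Every siKlf4 library was below every Scr library, and 49.6% of the Scr mean was left. The means were 56.3 ± 6.07 and 27.9 ± 2.45 TPM (SD, n = 3), a log2 fold change of -0.98 (SE 0.10, adjusted p = 0.000383 by limma). The difference of the Plaur responses, SMCs minus PDGFR-β+ cells, was 1.83 on the log2 scale (SE 0.24, adjusted p = 0.000216 by limma). It passed under each of the 21 alternatives that gave a test, and its value was 1.63 to 2.03 over all 22.

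**Figure D2:**
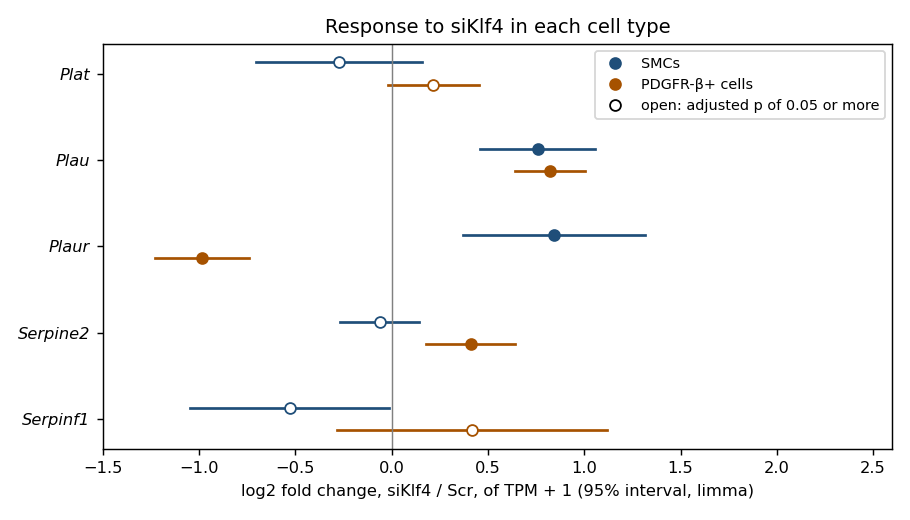
Log2 fold change of siKlf4 over Scr on the TPM + 1 scale for the 5 genes, with 95% intervals from limma, in SMCs (blue) and PDGFR-β+ cells (brown). Filled points passed an adjusted p of 0.05, and the Plaur points lie on opposite sides of 0, at 0.84 and -0.98.

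Serpine2 encodes protease nexin-1, a serpin that inhibits urokinase, tissue-type activator, plasmin and thrombin at the cell surface and in the matrix. It was one of the more abundant transcripts of SMCs, with 324.2, 317.7 and 269.3 TPM under Scr and 303.9, 290.1 and 277.1 TPM under siKlf4. The groups overlapped, and the log2 fold change was -0.06 (95% interval -0.27 to 0.14, adjusted p = 0.629 by limma). In PDGFR-β+ cells, Serpine2 was at 101.8, 109.7 and 113.5 TPM with Scr and at 155.2, 153.7 and 125.4 TPM with siKlf4. All siKlf4 libraries were above all Scr libraries, with means of 108.3 ± 5.95 and 144.8 ± 16.8 TPM (SD, n = 3) and a log2 fold change of 0.41 (SE 0.10, adjusted p = 0.0138 by limma). Without siKlf4 replicate 2 the adjusted p was 0.0526 by limma. The responses differed by -0.47, SMCs minus PDGFR-β+ cells (SE 0.14, adjusted p = 0.0208 by limma), and this call was lost by a narrow margin without siKlf4 SMC replicate 3 or without PDGFR-β+ Scr replicate 1, siKlf4 replicate 1 or siKlf4 replicate 2 (adjusted p from 0.0503 to 0.0520 by limma).

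Serpinf1 encodes pigment epithelium-derived factor, a secreted serpin that does not inhibit proteases and is known for blocking the growth of blood vessels. It had the highest level of the 5 genes in every group and the widest spread in TPM among Scr libraries. Serpinf1 was at 914.9, 510.8 and 911.6 TPM in Scr SMCs and at 493.5, 516.6 and 554.3 TPM in siKlf4 SMCs. Scr replicate 2 lay among the siKlf4 libraries, and the other two Scr libraries lay well above them. The log2 fold change was -0.53 (SE 0.22, adjusted p = 0.112 by limma), and without Scr replicate 2 it was -0.81 with an adjusted p of 0.00678. In PDGFR-β+ cells, Serpinf1 was at 762.8, 390.8 and 995.9 TPM with Scr and at 940.9, 848.3 and 887.1 TPM with siKlf4. Scr replicate 2 was the low library and Scr replicate 3 the high one, with the siKlf4 libraries between them. The log2 fold change was 0.42 (95% interval -0.29 to 1.12, adjusted p = 0.303 by limma), but 0.03 without Scr replicate 2 and 0.71 without Scr replicate 3, where it did not pass either. The Serpinf1 responses differed by -0.95 (SE 0.42, adjusted p = 0.103 by limma), which passed without Scr SMC replicate 2 (-1.23, adjusted p = 0.0346 by limma) or without Scr PDGFR-β+ replicate 3 (-1.24, adjusted p = 0.0317).

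Over the 5 genes, 2 passed the test in SMCs, where 28.5% of 13709 genes tested did, and 3 passed in PDGFR-β+ cells, where 40.6% of 13694 genes did. For the difference between the cell types, 2 of the 5 passed, against 33.0% of 13032 genes. The median log2 fold change of the members was -0.06 in SMCs and 0.41 in PDGFR-β+ cells, beside 0.02 and 0.10 over all genes tested. Median-ratio scaling moved the PDGFR-β+ median over all genes by 0.10, to -0.003, and it turned no direction of a called member.

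Serpinf1 had the highest and Serpine2 the next highest mean level in all 4 groups, and the order parted from the third place on. TPM is scaled for transcript length, so levels can be set between genes. In Scr SMCs the order of mean levels was Serpinf1 (779.1 TPM), Serpine2 (303.7), Plat (53.6), Plau (24.1) and Plaur (19.9), and only Plau and Plaur overlapped among neighbours. Serpinf1 stood at the 98.7 percentile of the genes tested and Plaur at the 49.0 percentile. In siKlf4 SMCs the order was the same, but Plat (43.4 TPM), Plau (41.5) and Plaur (35.7) overlapped each with the next. In Scr PDGFR-β+ cells Serpinf1 (716.5 TPM) and Serpine2 (108.3) were followed by Plau (68.6), Plaur (56.3) and Plat (50.3), of which Plaur and Plat overlapped. In siKlf4 PDGFR-β+ cells Plau (122.0 TPM) overlapped with Serpine2 (144.8), and Plat (58.2) stood apart from Plaur (27.9).

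Between the cell types under Scr, Serpine2 was higher in each SMC library than in any PDGFR-β+ library, whereas Plau and Plaur were lower in each SMC library than in any PDGFR-β+ library. Plat and Serpinf1 overlapped between the cell types. These levels come from separately deposited tables and were not tested.

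The ratio of urokinase to its receptor was higher with siKlf4 in PDGFR-β+ cells and overlapped between the treatments in SMCs. Plau over Plaur was 1.21, 1.17 and 1.29 in Scr PDGFR-β+ replicates 1 to 3 and 4.86, 3.88 and 4.43 in the siKlf4 replicates. Its mean thus went from 1.22 ± 0.063 to 4.39 ± 0.494 (SD, n = 3), with groups far apart. In SMCs, where both genes rose, the ratio was 1.93, 1.18 and 0.842 with Scr and 1.47, 1.19 and 0.897 with siKlf4, and the groups overlapped.

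The ratio of the activators, Plat over Plau, was 2.50, 2.14 and 1.96 in Scr SMCs and 1.05, 1.03 and 1.06 in siKlf4 SMCs. Plat transcripts outnumbered those of Plau in the first group and were about level with them in the second. In PDGFR-β+ cells this ratio was 0.788, 0.587 and 0.841 with Scr and 0.448, 0.492 and 0.495 with siKlf4, so Plau was the more abundant activator in each library. The sum of Plat and Plau over Serpine2 was 0.255 ± 0.042 in Scr and 0.292 ± 0.020 in siKlf4 SMCs, and 1.10 ± 0.070 in Scr and 1.25 ± 0.120 in siKlf4 PDGFR-β+ cells (SD, n = 3), and the groups overlapped in both cell types. No test was run on ratios, which share their genes with the comparisons above.

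**Figure D3:**
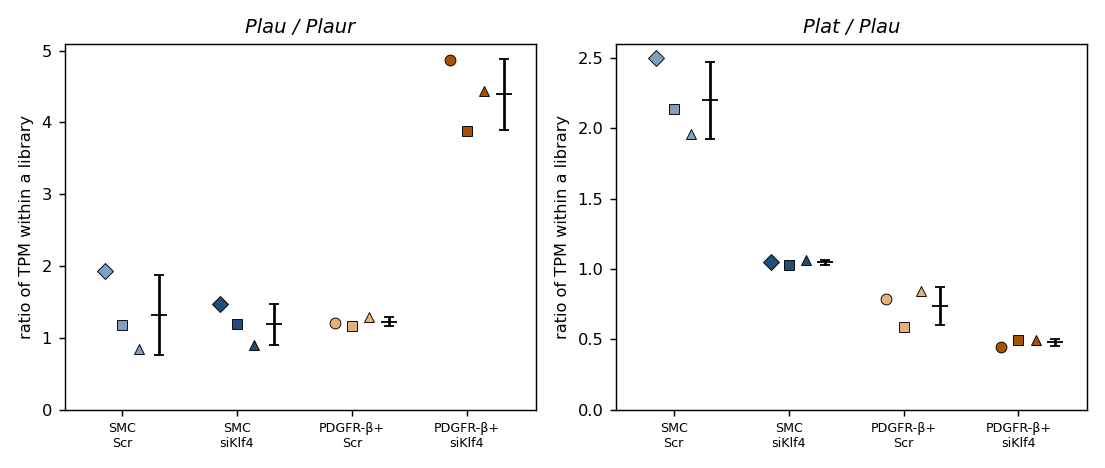
Ratios of TPM within a library (linear axes from 0), Plau over Plaur on the left and Plat over Plau on the right, for the 12 libraries by group with the mean ± SD of 3 libraries; marker shapes give the replicate number, with a diamond for the SMC libraries without one. Plau over Plaur was 3.88 to 4.86 in siKlf4 PDGFR-β+ cells and at most 1.93 elsewhere.

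The members' known partners were counted over a list of 32 genes for the substrate, other inhibitors, surface binding proteins and clearance receptors. In SMCs 22 were tested, of which 7 rose and 7 fell, and in PDGFR-β+ cells 20 were tested, of which 5 rose and 10 fell. The shares called were 63.6% and 75.0%, beside 28.5% and 40.6% of all genes. The list's median log2 fold change was 0.02 for SMCs and -0.42 for PDGFR-β+ cells, beside 0.02 and 0.10 over all genes. Plg, the gene for plasminogen itself, was listed at 0 in every library, as were Serpina5, Cpb2 and Hrg. Among those called in opposite directions were Anxa2, Eno1, Mrc2 and Vldlr, up in SMCs and down in PDGFR-β+ cells, as Plaur was, and Serpinb2, with the reverse.

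Serpinb2, which encodes plasminogen activator inhibitor-2, fell from 34.6 to 15.3 TPM in SMCs and rose from 1.86 to 4.52 TPM in PDGFR-β+ cells, giving -1.13 and 0.96 on the log2 scale. Serpini1, another serpin gene of the list, rose in PDGFR-β+ cells by 0.94 and had 0.13 in SMCs without passing. Its responses differed by -0.81, SMCs minus PDGFR-β+ cells (SE 0.18, adjusted p = 0.00475 by limma).

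Among plasminogen binding proteins of the cell surface, Anxa2 (annexin A2) stood at a log2 fold change of 0.40 for SMCs against -0.47 for PDGFR-β+ cells, and Eno1 (enolase) at 0.57 against -0.36. S100a10, which forms a complex with annexin A2, fell in both, at -0.46 and -0.62, and the SMC call was lost in 6 of 17 alternatives (adjusted p up to 0.114 by limma), among them no filter on low values and leaving out either Scr library other than replicate 3. Plgrkt, a plasminogen receptor, rose in PDGFR-β+ cells by 0.32 and had -0.03 in SMCs, and the rise was lost without siKlf4 replicate 1 or 2 (adjusted p up to 0.0623 by limma). Clec3b (tetranectin), which binds a kringle of plasminogen, fell from 10.0 to 0.824 TPM in SMCs and from 5.53 to 0.279 TPM in PDGFR-β+ cells, at -2.57 and -2.32.

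Of the receptors that take up activator and serpin complexes, Lrp1 fell in PDGFR-β+ cells from 867.0 to 495.3 TPM with a log2 fold change of -0.83 (adjusted p = 0.00620 by limma), and had 0.05 in SMCs. Vldlr had -0.45 in PDGFR-β+ cells and 0.45 in SMCs, and both passed. Vldlr lost its PDGFR-β+ call in 7 of 14 alternatives (adjusted p up to 0.113 by limma), every left-out library but siKlf4 replicate 2 among them, and its SMC call in 4 of 17 (up to 0.0795), all of them left-out libraries. Mrc2, a collagen receptor that associates with Plaur, was called in both, at 0.45 for SMCs and -0.77 for PDGFR-β+ cells. Hgf, a growth factor whose precursor is activated by serine proteases, fell in SMCs by 0.77, and the broad inhibitors Serping1 and A2m had -0.81 and -1.17 there. Without siKlf4 SMC replicate 2 or 3 the SMC calls of Mrc2 and A2m were lost (adjusted p up to 0.0696 and 0.0584 by limma).

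**Figure D4:**
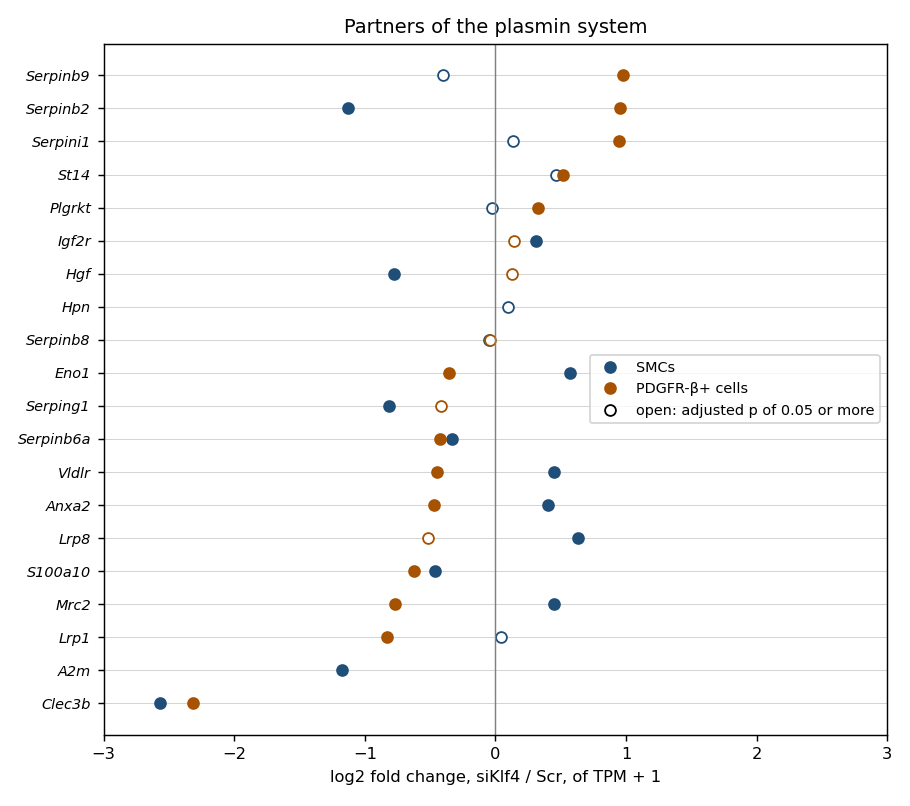
Log2 fold change of siKlf4 over Scr on the TPM + 1 scale for partners of the plasmin system, in SMCs (blue) and PDGFR-β+ cells (brown), with filled points past an adjusted p of 0.05 by limma. Serpinb2 lies at -1.13 in SMCs and 0.96 in PDGFR-β+ cells, and Mrc2 at 0.45 and -0.77.

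Proteins reported to bind the Serpinf1 product formed a list of 5 genes, of which 4 were tested in each cell type. Plxdc2, a membrane protein, rose from 67.6 to 108.6 TPM in SMCs and fell from 91.6 to 61.4 TPM in PDGFR-β+ cells (log2 fold changes 0.68 and -0.57). Rpsa, the laminin receptor and ribosomal protein, rose by 0.20 in PDGFR-β+ cells, a call lost in 9 of 14 alternatives (adjusted p up to 0.336 by limma), and Pnpla2 and Lrp6 did not pass in either. The shares called were 25% in SMCs and 50% in PDGFR-β+ cells, beside 28.5% and 40.6% of all genes. The list's median log2 fold change was 0.13 in SMCs and 0.23 in PDGFR-β+ cells, beside 0.02 and 0.10 over all genes.

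Protease nexin-1 also inhibits thrombin, so 15 genes of the thrombin side were counted. Of 6 tested in SMCs 2 rose and none fell (33.3% called, list median 0.24), and of 7 tested in PDGFR-β+ cells 2 rose and 3 fell (71.4% called, list median -0.16). Of all genes 28.5% and 40.6% were called, with medians of 0.02 and 0.10. F3 (tissue factor) rose in SMCs from 355.7 to 615.3 TPM, with a log2 fold change of 0.80, and had 0.26 in PDGFR-β+ cells without passing. F2r, the main thrombin receptor, rose in both, by 0.25 and 0.32, of which the SMC call was lost in 13 of 17 alternatives and the other in 3 of 14. Thbd (thrombomodulin), which turns thrombin towards protein C, fell in PDGFR-β+ cells by 1.02, and Procr, the protein C receptor, rose there by 1.18.

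The serpin family without the 2 members holds 66 genes, of which 24 were listed at 0 in every library. Of 23 tested in SMCs 4 rose and 10 fell, with a median log2 fold change of -0.40, and of 17 tested in PDGFR-β+ cells 4 rose and 7 fell, with a median of -0.42. The shares called were 60.9% and 64.7%, beside 28.5% and 40.6% of all genes, whose medians were 0.02 and 0.10. The family shares genes with the partner list. Serpina3n, an inhibitor of granzyme B and other proteases, fell from 10660 to 2590 TPM in SMCs and from 155.5 to 24.0 TPM in PDGFR-β+ cells. Serpinb1a, an inhibitor of neutrophil elastase, fell in both, with log2 fold changes of -2.11 and -2.63. Serpine2 and Serpinf1 did not fall past the test in either cell type. The Serpina3, Serpinb1, Serpinb6 and Serpinb9 genes are families of related copies in the mouse. The split of reads among them may be uncertain and was not tested.

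The genes whose pattern was most like each member were found by Pearson's r of log2(TPM + 1) over the 12 libraries among 11776 genes. They were Hs2st1 (0.995) and Fmn1 (0.993) for Plau, Ppp1r13l (0.966) and Tnfrsf23 (0.965) for Plaur, Cxcl1 (0.990) and Cdon (0.989) for Serpine2, Zfp939 (0.922) and Zfp300 (0.919) for Plat, and Ank2 (0.830) and Marcks (0.817) for Serpinf1. These values describe the 12 points, which share 4 group means, and by Spearman's rho the leading pair held 1 of the same 2 genes for Plat and none for the others.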

How the data were processed

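Bulk RNA-seq libraries of SMCs and lung PDGFR-β+ cells, 3 per group, were analysed. The authors selected polyadenylated RNA, made strand-specific libraries, aligned reads to mm10 with HISAT2 and a GENCODE annotation, estimated abundance with StringTie and deposited TPM values separately for each cell type, without pooling replicates. The study tested counts with DESeq2, and counts are not used here. TPM holds no depth, so no counting error is given. Among SMC columns, 1 of Scr and 1 of siKlf4 lack a replicate number, and they entered their groups without one.

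Values were analysed as log2(TPM + 1), keeping genes that averaged 1 TPM or more in the 6 libraries of the cell type, with limma 3.58.1 in R 4.3.3 (eBayes with a mean-variance trend), each cell type on its own. Fold changes on this scale understate those of low genes. The difference between cell types was the interaction term over 12 libraries. P-values were two-sided and adjusted by Benjamini-Hochberg across every gene tested, with 0.05 as the threshold. The smallest exact permutation p for 3 against 3 is 0.1, so p-values rest on a variance shared across genes. The study calls the libraries independent experiments, but nothing says from which animals they came, so p-values measure the spread between these libraries. Scripts were tested on simulated data. Named genes were the members, Klf4, at most 8 called genes with groups that do not overlap per list and cell type, the list genes with the highest Scr levels, and the 2 genes most alike each member; other genes of the lists named with values below the threshold, and the marker genes, were chosen after their values were seen. The members and the lists were chosen with earlier results of these data known. Alternatives were a pseudocount of 0.1, no filter or a minimum of 5 TPM, median-ratio and quantile scaling, no trend, 1 joint fit, a replicate block, a term for column naming, the numbered SMC libraries alone and each library left out. Some list genes enter the counts but are not reported here by name.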

Additional observations from a re-analysis of the deposited data

Results flagged for a closer look

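The responses of 2 of the 5 genes to siKlf4 differed between the cell types by the interaction test, where 33.0% of 13032 genes did. Plaur rose with siKlf4 in SMCs and fell with it in PDGFR-β+ cells, a difference of 1.83 on the log2 scale. Serpine2 differed by -0.47, with -0.06 in SMCs and 0.41 in PDGFR-β+ cells. That call was lost in 4 of the 21 alternatives that gave a test. Smooth muscle and mesothelial marker sums also moved with siKlf4 in both cell types, as did endothelial and PDGFR-β+ mesenchyme sums in SMCs. Single smooth muscle markers went both ways in PDGFR-β+ cells. The part of these marker changes in either difference was not tested. Groups of 3 libraries are too small for a test of single outlying libraries.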

How the results depend on the processing

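Of 260 tested values of the 5 genes under alternatives, 242 kept their direction and their side of the threshold. With no filter on low values Plaur in SMCs stayed at 0.84 but did not pass. With libraries left out in turn, log2 fold changes ranged from 0.65 to 1.04 for Plaur and from -0.81 to -0.39 for Serpinf1 in SMCs, and from 0.36 to 0.51 for Serpine2 in PDGFR-β+ cells. Differences between the cell types ranged from -0.64 to -0.28 for Plat, from -0.15 to 0.045 for Plau, from -0.57 to -0.42 for Serpine2 and from -1.24 to -0.56 for Serpinf1. The Plau difference was 0.034 with median-ratio scaling. The causes were not tested, beyond the smaller number of samples.

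Without Scr replicate 2, siKlf4 replicate 2 or siKlf4 replicate 3, the genes called in SMCs went from 3910 to 2539, 2216 and 2342, and the partners called from 14 to 9, 7 and 9. The serpins called in SMCs went from 14 to 9 without Scr replicate 2 and to 8 in the joint fit. The thrombin side's count was 1 to 4 in SMCs, 3 to 5 in PDGFR-β+ cells and 2 to 4 for the difference.

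The replicate numbers did not pair the PDGFR-β+ samples (correlations of deviations 0.073, -0.016 and 0.004, with 3 of 6 libraries closest to its own number). In SMCs only replicates 2 and 3 carry numbers (0.185 and 0.199), and the libraries without one correlated at 0.361. The other SMC combinations had -0.217 to 0.050, so each SMC library was closest to its own counterpart. The main SMC and difference tests hold no term for this. With a term for column naming, genes called in SMCs went from 3910 to 5492. With the replicate block the Plat difference stayed at -0.49 and passed (adjusted p = 0.0341 by limma), as it did with a term for column naming (-0.49, adjusted p = 0.0261). The block changed no other call of a member. Genes called went to 5641 in PDGFR-β+ cells, to 5037 for the difference, to 2853 with the block on the numbered SMC libraries, against 3965 with those libraries and no block, and to 4872 with a level for the SMC libraries without a number, which was added after seeing the data. TPM keeps no depth, so the limit that depth sets is unknown.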
